A study of Mus musculus with 8 samples.

Results

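The retinoic acid genes described here are the retinol carrier Rbp4, the synthesis enzymes Aldh1a1, Aldh1a2 and Aldh1a3, the breakdown enzyme Cyp26b1, and the receptors Rara, Rarb, Rxra, Rxrb and Rxrg. They were chosen by symbol, and all 10 were found among the 33885 symbols of both deposited count tables. Total RNA was sequenced from 8 libraries of adult male C57Bl6J mice, in 4 groups of 2. The nucleus accumbens (NAc), the ventral part of the striatum, was taken 15 minutes after cocaine conditioned place preference (7.5 mg/kg, injected intraperitoneally) and from home-cage mice without stimulation. The medial prefrontal cortex (mPFC) was taken 15 minutes after social defeat by aggressive CD1 males and from home-cage mice. No mouse carried a genetic change according to the labels. Every library is dissected bulk tissue, so fewer cells of a type and less RNA per cell cannot be told apart. Separate animals are not named for the replicates. The p-values rest on how far the libraries of a group lay apart, in each gene and over all genes together, and that spread may be technical.

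Retinol travels in blood bound to RBP4 and is oxidised in cells first to retinaldehyde and then, by the ALDH1A enzymes, to retinoic acid. Retinoic acid binds the RARs, which act on DNA as pairs with an RXR, while CYP26 enzymes oxidise retinoic acid and so limit where it acts. In the striatum, RARβ and RXRγ are known as receptors of the medium spiny projection neurons, and mice that lack them have altered dopamine D2 receptor signalling. In the cortex, ALDH1A2 is known from the meninges, and ALDH1A3 from cortical neurons.

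The promoters of the receptors whose levels differed most between the regions are shown first, since Rarb is itself a known target of retinoic acid through an element in its promoter. Both are the 250 bases before a gene start listed by RefSeq on GRCm38.p6, read 5′ to 3′ on the gene's strand. Rarb lies on the minus strand (chr14:16575477-16575726) and Rxrg on the plus strand (chr1:167598112-167598361). This Rarb window lies inside the gene span annotated by GENCODE M21 (chr14:16430839-16819156), so its start is not the outermost one. In the Rarb sequence the capitals mark a direct repeat with a spacer, found by searching both strands for GGTTCA and AGTTCA with 5 bases of any kind between them.
Rarb: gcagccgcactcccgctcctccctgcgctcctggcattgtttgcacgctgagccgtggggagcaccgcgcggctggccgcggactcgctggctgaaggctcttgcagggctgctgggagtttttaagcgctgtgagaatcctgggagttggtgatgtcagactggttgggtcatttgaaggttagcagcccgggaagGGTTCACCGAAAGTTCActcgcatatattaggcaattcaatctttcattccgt
Rxrg: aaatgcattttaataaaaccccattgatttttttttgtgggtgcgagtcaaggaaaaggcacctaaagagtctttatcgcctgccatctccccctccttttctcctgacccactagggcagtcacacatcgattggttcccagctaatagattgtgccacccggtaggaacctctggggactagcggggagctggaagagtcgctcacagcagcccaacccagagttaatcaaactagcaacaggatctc
The repeat occupied bases 53 to 37 before the listed Rarb start. This repeat, with any 5 bases as its spacer, was found in 2 of the 32851 listed windows (0.00609%), which run from 250 bases before to 50 after each start. The letters searched for were those of the known Rarb element, so a match there was set in advance and its rarity tests nothing. A broader retinoic acid response element, the DR5 consensus, which takes in this repeat, was found in 32 of those windows (0.0974%). Among the 17 windows listed for 9 of the 10 genes, the Rarb window alone held either motif. Such a match is a description of the letters and not a measured binding site.

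Levels are in edgeR's CPM, which sets counts relative to library size after TMM scaling of all 8 libraries, whose totals ran from 111901829 to 179479978 counts. Rarb, a nuclear receptor for retinoic acid, stood at 681 and 237 CPM in the NAc cocaine libraries and 731 and 167 CPM in the NAc home-cage libraries. It stood at 14.6 and 15.9 CPM in the mPFC defeat libraries and 16.0 and 16.8 CPM in the mPFC home-cage libraries. All 4 NAc libraries lay far above all 4 mPFC libraries, and in each NAc group replicate 1 was well above replicate 2. Rxrg, the partner receptor RXRγ, stood at 85.1 and 41.2 CPM in NAc after cocaine and 94.5 and 38.8 CPM in NAc of home-cage mice. In mPFC it stood at 5.33 and 4.35 CPM after defeat and 5.34 and 6.72 CPM in home-cage mice. The order of the libraries was thus alike for both receptors within NAc, while the regions did not overlap. Across the 8 libraries the log2 CPM of Rarb spanned 5.56 and that of Rxrg 4.16, the widest ranges of the 10 genes, followed by Aldh1a3 with 2.27.

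**Figure D1:**
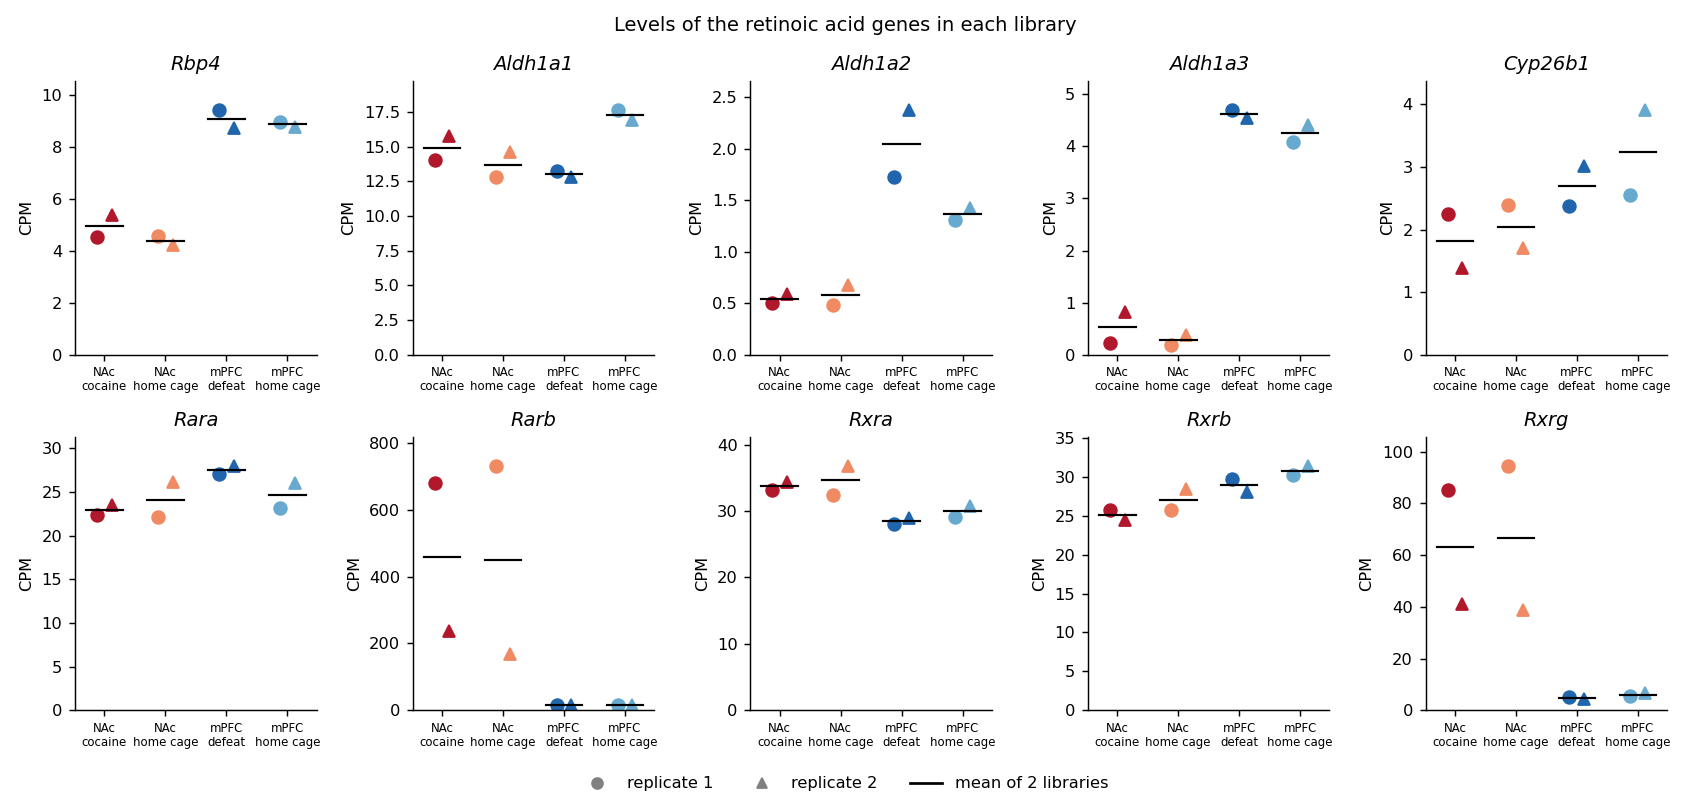
CPM of the 10 retinoic acid genes in each of the 8 libraries (1 panel a gene, each with its own axis from 0), with 1 point a library, a line at the mean of 2 libraries and the groups in the order NAc cocaine, NAc home cage, mPFC defeat and mPFC home cage. Rarb and Rxrg are high in NAc, Aldh1a3 and Aldh1a2 are higher in mPFC, and Rara, Rxra and Rxrb lie close together in all libraries.

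Replicate 1 of each NAc group stood apart from replicate 2, and this touches each NAc value of Rarb, Rxrg, Aldh1a3 and Cyp26b1. Rarb was 2.88 times as high in replicate 1 as in replicate 2 after cocaine and 4.38 times as high in home-cage mice. For Rxrg the same ratios were 2.06 and 2.44, and for Cyp26b1 they were 1.61 and 1.41. Aldh1a3 ran the other way, with replicate 2 above replicate 1 by 3.71 times after cocaine and 2.13 times in home-cage mice. Markers of striatal projection neurons moved with the number too: Drd1, a dopamine receptor gene of these neurons, was 2.61 and 3.60 times as high in replicate 1. Drd2, the other main dopamine receptor gene there, was 3.33 and 4.77 times as high. The cortical glutamatergic marker Slc17a7 was lower in replicate 1, at 0.649 and 0.447 times replicate 2. The summed level of 17 striatal markers, none at 0, was 7294 and 3318 CPM after cocaine and 8275 and 3008 CPM in NAc home-cage mice, against 1231 to 1376 CPM in mPFC. The summed level of 15 cortical glutamatergic markers, none at 0, was 1557 and 1951 CPM after cocaine and 1477 and 2092 CPM in NAc home-cage mice, against 2992 to 3154 CPM in mPFC. Their part in the levels of these retinoic acid genes was not tested.

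Set against the striatal markers, the receptors spread less over the NAc libraries. The ratio of Rarb CPM to Drd1 CPM was 7.24 and 6.56 after cocaine and 6.21 and 5.10 in home-cage mice, a 1.42-fold range, where the Rarb level itself had a 4.38-fold range. Set against Drd2 the range of Rarb was 1.36-fold, and as a share of the summed striatal list it was 1.68-fold. Rxrg amounted to 1.17% and 1.24% of the summed striatal list after cocaine and 1.14% and 1.29% in home-cage mice, a 1.13-fold range, where its level had a 2.44-fold range. Set against Drd1 and Drd2 singly, the range of Rxrg was wider, 1.48-fold and 1.96-fold. The 6 genes besides Rarb, Rxrg, Aldh1a3 and Cyp26b1 differed between the lowest and the highest NAc library by 1.14-fold for Rxra to 1.39-fold for Aldh1a2. Of these, Aldh1a1, Aldh1a2, Rara and Rxra were higher in replicate 2 of both groups, as Aldh1a3 was. For Aldh1a2 replicate 2 was 1.17 times replicate 1 after cocaine and 1.39 times in home-cage mice. Rbp4 and Rxrb changed direction between the groups. In mPFC, Rarb had 1.17% to 1.30% of the summed striatal list, against 5.55% to 9.34% in NAc, and Rxrg had 0.335% to 0.488%. Set against Drd1, Rarb was lower in mPFC too, at 1.18 to 1.61. Set against Drd2 it was higher there, at 4.90 to 7.03 against 2.63 to 3.57 in NAc.

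**Figure D2:**
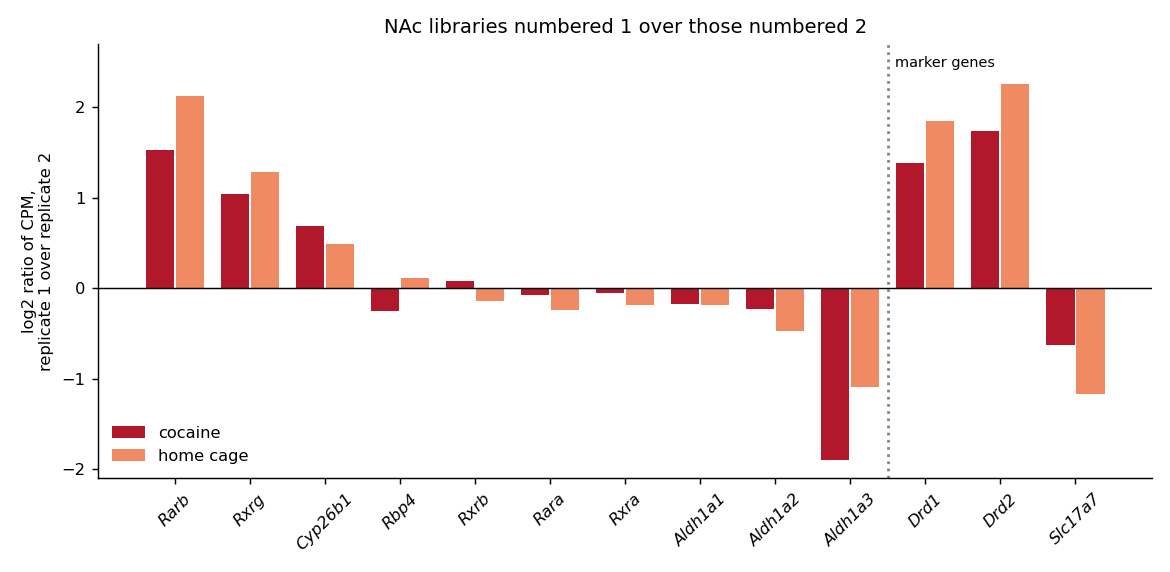
Log2 ratio of CPM in replicate 1 to replicate 2, as bars, within the NAc cocaine and NAc home-cage groups, for the 10 retinoic acid genes and marker genes. Rarb and Rxrg lie on the side of Drd1 and Drd2, above 0, and Aldh1a3 on the side of Slc17a7, below 0.

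The comparison of NAc with mPFC in home-cage mice asked where the genes are used at rest. Receptor genes Rarb and Rxrg were higher in NAc, and Aldh1a3, Aldh1a2 and Rbp4 were lower. Thus 5 of the 10 genes passed at an adjusted p under 0.05, 2 as higher and 3 as lower, where 12.4% of the 18300 genes tested passed, 7.01% as higher and 5.35% as lower (edgeR's quasi-likelihood test, Benjamini-Hochberg adjustment, here and below). At an unadjusted p under 0.05 there were 6 of the 10 and 31.5% of all genes. NAc and mPFC came as separate deposited tables, and region cannot be told apart from any difference in handling between them. The 10 genes had a median log2 fold change of -0.27, against 0.01 over all genes.

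Rarb averaged 449 ± 399 CPM in NAc and 16.4 ± 0.513 CPM in mPFC (SD, n = 2 each), a 27.2-fold higher level (log2 fold change 4.77, SE 0.742, adjusted p = 0.0202). Rxrg averaged 66.6 ± 39.4 CPM in NAc and 6.03 ± 0.977 CPM in mPFC (SD, n = 2 each), 11-fold higher (log2 fold change 3.46, SE 0.452, adjusted p = 0.0135). The receptors without this pattern differed little. Rara, a widely expressed RAR, stood at 22.1 and 26.1 CPM in NAc and 23.2 and 26.0 CPM in mPFC, with overlapping regions and a log2 fold change of -0.04. Rxra stood at 32.4 and 36.8 CPM in NAc against 29.2 and 30.7 CPM in mPFC. Rxrb stood at 25.8 and 28.4 CPM in NAc against 30.2 and 31.4 CPM in mPFC. Neither RXR gene passed, with log2 fold changes of 0.20 for Rxra and -0.19 for Rxrb.

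Among the enzymes, Aldh1a3 (chr7:66390890-66427517, minus strand) showed the widest gap. It stood at 0.181 and 0.384 CPM in NAc (32 and 53 counts) against 4.09 and 4.41 CPM in mPFC (555 and 490 counts). It was thus 15.3-fold lower in NAc (log2 fold change -3.94, SE 0.361, adjusted p = 0.00665). Aldh1a2, the main enzyme of the embryo and the meninges, stood at 0.486 and 0.674 CPM in NAc against 1.31 and 1.42 CPM in mPFC, 2.37-fold lower (log2 fold change -1.25, SE 0.244, adjusted p = 0.0347). Rbp4 stood at 4.56 and 4.23 CPM in NAc against 8.96 and 8.78 CPM in mPFC, 2.03-fold lower (log2 fold change -1.02, SE 0.122, adjusted p = 0.0109). Each of these 3 genes had both NAc libraries below both mPFC libraries.

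Aldh1a1, known in midbrain dopamine neurons and glia, stood at 12.8 and 14.6 CPM in NAc against 17.6 and 16.9 CPM in mPFC, and did not pass (log2 fold change -0.34, SE 0.114, adjusted p = 0.112). Cyp26b1 stood at 2.39 and 1.70 CPM in NAc against 2.56 and 3.90 CPM in mPFC and did not pass either (log2 fold change -0.66, SE 0.281, adjusted p = 0.180). In 9 of the 10 genes, all but Rara, the regions did not overlap, as in 63.4% of the genes tested.

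These calls rest on the mPFC pair. Without mPFC home-cage replicate 1 or 2 in turn, 0 of the 10 genes and 0 of all genes passed in edgeR, although 6 and 5 of the 10 and 2680 and 2724 genes had an unadjusted p under 0.05 and the DESeq2 test on all 4 libraries passed 5 of the 10. When either NAc home-cage library was left out, the error came from the close mPFC pair alone, so the number that then passed is no check. The log2 fold change of Rarb was then 3.34 without replicate 1 and 5.47 without replicate 2, that of Rxrg 2.68 and 3.96, and that of Aldh1a3 -3.47 and -4.56.

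Beside these differences, 12 of the 17 striatal markers were higher in NAc and 5 of the 15 cortical markers lower. Among the markers, Drd2 had a log2 fold change of 6.08 and Drd1 of 2.80. Of 14 meningeal fibroblast markers, 11 were tested and 1 was lower in NAc, and their summed level was 61.3 and 64.5 CPM in NAc against 64.8 and 75.3 CPM in mPFC, with Ogn, Igf2 and Foxc2 at 0 in every library. Their part in the difference of Aldh1a2 was not tested.

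The same regions were also compared after the experiences, NAc after cocaine against mPFC after defeat, where region and experience differ together. Here 7 of the 10 genes passed, 3 as higher and 4 as lower, beside 36.3% of the 18362 genes tested, 19.2% as higher and 17.1% as lower. At an unadjusted p under 0.05 there were 8 of the 10 and 47.6% of all genes. Rarb averaged 459 ± 314 CPM in NAc after cocaine and 15.2 ± 0.928 CPM in mPFC after defeat (SD, n = 2 each), 30.5-fold higher (log2 fold change 4.93, SE 0.539, adjusted p = 0.00306). Rxrg averaged 63.2 ± 31.0 CPM in NAc after cocaine and 4.84 ± 0.694 CPM in mPFC after defeat, 13.2-fold higher (log2 fold change 3.72, SE 0.371, adjusted p = 0.00243). Both receptors were thus high in NAc in mice from the conditioning as well as from the home cage.

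Aldh1a3 stood at 0.222 and 0.826 CPM in NAc after cocaine against 4.69 and 4.54 CPM in mPFC after defeat, 8.69-fold lower (log2 fold change -3.12, SE 0.500, adjusted p = 0.00815). Aldh1a2 stood at 0.502 and 0.588 CPM against 1.73 and 2.37 CPM, 3.72-fold lower (log2 fold change -1.90, SE 0.222, adjusted p = 0.00355). Rbp4 stood at 4.54 and 5.38 CPM against 9.41 and 8.74 CPM, 1.81-fold lower (log2 fold change -0.86, SE 0.118, adjusted p = 0.00534). For all 3 the libraries of the regions lay apart. Among the broadly expressed receptors, Rxra was slightly higher in NAc (log2 fold change 0.26, SE 0.0614, adjusted p = 0.0252) and Rara slightly lower (log2 fold change -0.25, SE 0.0646, adjusted p = 0.0315). Aldh1a1, Cyp26b1 and Rxrb did not pass, with log2 fold changes of 0.21, -0.55 and -0.19.

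The libraries of the regions did not overlap in any of the 10 genes, as in 74.5% of the genes tested. Without mPFC defeat replicate 1, where the NAc pair alone set the error, the log2 fold changes were 4.87 for Rarb, 3.87 for Rxrg and -3.09 for Aldh1a3. They were -2.11 for Aldh1a2 and -0.80 for Rbp4 in that fit. Without mPFC defeat replicate 2 they were 4.98 for Rarb, 3.57 for Rxrg, -3.15 for Aldh1a3, -1.66 for Aldh1a2 and -0.92 for Rbp4. Without NAc cocaine replicate 1, where the mPFC pair alone set the error, the log2 fold changes were 3.97 for Rarb, 3.10 for Rxrg and -2.47 for Aldh1a3. Without NAc cocaine replicate 2, Aldh1a3 had -4.36.

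**Figure D3:**
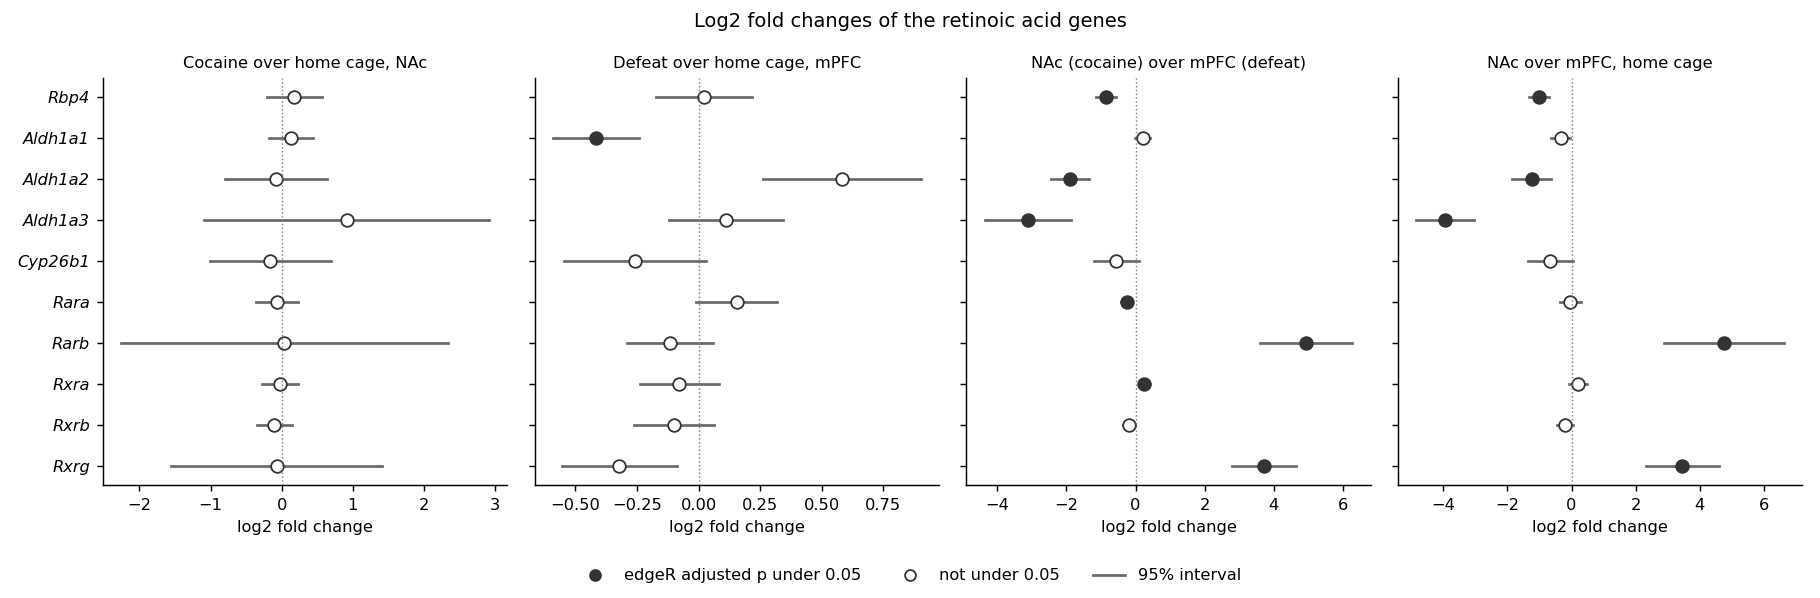
Log2 fold changes of the 10 genes with 95% intervals in the 4 comparisons of groups, from edgeR fits over all genes, with filled points for genes that passed at an adjusted p under 0.05. The region panels show Rarb and Rxrg far above 0 and Aldh1a3 far below, the defeat panel has Aldh1a1 as its only filled point, and the cocaine panel has none.

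Levels of different genes can be set side by side only per length, and whether intronic reads were counted is not given in the sources used here, so both exon length and gene span were used. Rarb (chr14:16430839-16819156, minus strand) spans 388 kb with 5.27 kb of exons, and Rxrg (chr1:167598384-167639623, plus strand) 41.2 kb with 2.30 kb of exons, on GRCm38 in GENCODE M21. Rarb overlaps Top2b over 4624 bases and the antisense gene Gm48162 over 4859 bases on the opposite strand, so reads there cannot be assigned with certainty. Per kb of exon, Rarb was the highest of the 10 genes and Rarg in NAc, with 86.2 ± 55.7 CPM per kb, followed by Rxrg with 28.3 ± 12.6 CPM per kb (SD over the 4 NAc libraries). The ranges of Rarb and Rxrg over the NAc libraries overlapped, but within each NAc library Rarb was above Rxrg. In home-cage replicate 2, where both were lowest, they had 31.7 and 16.9 CPM per kb. Rxrg and the next gene, Rxrb with 6.56 ± 0.417 CPM per kb, did not overlap. Aldh1a3 came last, with 0.0874 ± 0.0639 CPM per kb. In mPFC, Rxrb came first on this scale with 7.52 ± 0.345 CPM per kb, above Rbp4 with 6.68 ± 0.231 CPM per kb, while Rarb had 3.0 ± 0.173 and Rxrg 2.37 ± 0.424 CPM per kb. Per kb of span, Rxrb was first in both regions, and in NAc it was followed by Rxrg and then Rarb, whose ranges overlapped. Within each NAc library Rxrg was above Rarb on this scale. The whole 388 kb was used for Rarb, although the start of the promoter shown above lies inside it. A transcript from that start spans less, so the place of Rarb on this scale depends on the start used.

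Within the RAR family, which also holds Rarg, Rarb made up 91.9% and 82.6% of the summed CPM per kb of exon in NAc after cocaine and 92.8% and 74.8% in NAc of home-cage mice. It made up 22.2% and 23.1% in mPFC after defeat and 26.0% and 25.2% in mPFC of home-cage mice. The main RAR gene thus differed between the regions on this scale, being Rarb in NAc and Rara in mPFC. Per kb of span the Rarb share was 51.5% and 32.4% after cocaine and 54.7% and 22.9% in NAc home-cage mice, against 2.94% to 3.53% in mPFC. On that scale Rarg had the largest share in NAc replicate 2 of each group and in every mPFC library. In mPFC it had 51.9% to 54.3%, against 42.2% to 45.2% for Rara. These shares use the whole 388 kb span of Rarb, and a shorter span would raise the Rarb share.

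Rxrg made up 74.7% and 59.0% of the RXR genes per kb of exon after cocaine and 76.8% and 54.9% in NAc home-cage mice, against 13.3% to 17.8% in mPFC. Per kb of span, Rxrb was the main RXR gene in all 8 libraries, and the Rxrg share was 32.5% and 19.6% after cocaine and 34.8% and 16.6% in NAc home-cage mice, against 2.24% to 3.08% in mPFC. The leading RXR gene in NAc thus depended on the scale, while the Rxrg share was larger in NAc on both.

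Aldh1a1 was the main ALDH1A gene in all libraries per kb of exon. Its share was 91.3% and 87.9% in NAc after cocaine and 91.1% and 88.6% in NAc home-cage mice, against 60.1% and 56.2% in mPFC after defeat and 70.9% and 68.4% in mPFC home-cage mice. Per kb of span it led in NAc, with 77.8% to 88.6%, but not throughout mPFC. There Aldh1a3 led in both defeat libraries, with 54.0% and 51.9% against 36.9% and 35.7% for Aldh1a1, and in home-cage replicate 2, with 48.1% against 44.9%.

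**Figure D4:**
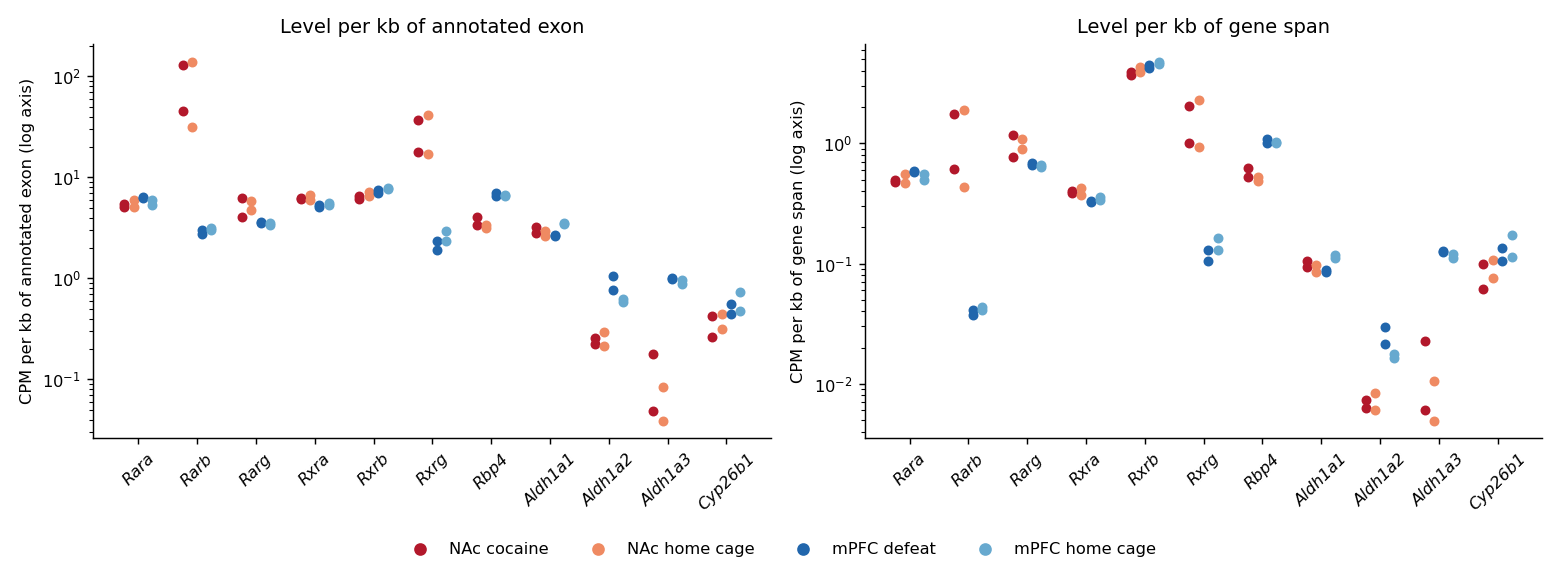
Levels of the 10 genes and Rarg in CPM per kb of exon and per kb of gene span (log axes), with 1 point a library, coloured by group. On the exon scale Rarb and Rxrg lead in NAc and Rxrb leads in mPFC, and on the span scale Rxrb leads in both.

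Social defeat against home cage in mPFC asked what changed shortly after an aversive encounter. Aldh1a1 fell, and no other of the 10 genes passed, which makes 1 of 10 where 0.704% of the 18027 genes tested passed in either direction, 0.549% as higher and 0.155% as lower. At an unadjusted p under 0.05 there were 3 of the 10 and 7.14% of all genes. Aldh1a1 stood at 13.2 and 12.8 CPM after defeat against 17.6 and 16.9 CPM in home-cage mice, and both defeat libraries lay below both home-cage libraries. The log2 fold change was -0.42 (SE 0.0877, 95% interval -0.59 to -0.24, adjusted p = 0.00339). The call was lost without defeat replicate 1 (log2 fold change -0.44, adjusted p = 0.0652), without defeat replicate 2 (-0.39, adjusted p = 0.330) and in 1 fit of all 8 libraries (-0.42, adjusted p = 1), while over all alternatives the adjusted p ran from 0.000729 to 1. In the annotation Aldh1a1 (chr19:20492715-20643465, plus strand) overlaps C730002L08Rik on the opposite strand over 59616 bases, and whether strand was used in counting is not given in the sources used here.

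Beside this fall, the summed level of 12 astrocyte markers, none at 0, was 4027 and 4134 CPM after defeat against 4292 and 4192 CPM in home-cage mice, and 0 of them passed. That of 12 oligodendrocyte markers, none at 0, was 1166 and 1283 CPM after defeat against 1560 and 1293 CPM, and 0 of them passed, with 5 at an unadjusted p under 0.05. Of the oligodendrocyte markers 10 of 12 had a negative log2 fold change, with a median of -0.16. Of 8 midbrain dopamine neuron markers 5 were tested and all 5 had a negative log2 fold change (median -0.20), with 0 passed and 1 at an unadjusted p under 0.05. Their summed level was 15.5 and 17.0 CPM after defeat against 17.5 and 18.0 CPM in home-cage mice, with Foxa2 at 0 in every library. All 8 tested microglia markers, of 10, also had a negative log2 fold change (median -0.07), with 0 passed and a summed level of 194 and 182 CPM after defeat against 201 and 197 CPM, and with P2ry12 and Itgam at 0 in every library. Over all genes the median was 0.00, and the part of these marker lists in the fall of Aldh1a1 was not tested.

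Aldh1a2 stood at 1.73 and 2.37 CPM after defeat against 1.31 and 1.42 CPM in home-cage mice, from 227 and 331 counts against 178 and 158 counts. Its groups did not overlap, but it did not pass (log2 fold change 0.58, SE 0.160, adjusted p = 0.0742). It passed with no low-count filter (adjusted p = 0.0172) and without defeat replicate 1 (log2 fold change 0.79, adjusted p = 0.0112), and had an adjusted p = 0.056 to 1.0 in the other alternatives. Of the 11 meningeal markers tested, 1 was higher after defeat, Fmod, a matrix proteoglycan named here after its value was seen, and their median log2 fold change was 0.19 against 0.00 over all genes. The summed level of all 14 was 72.1 and 76.5 CPM after defeat against 64.8 and 75.3 CPM in home-cage mice. Their part in the Aldh1a2 values was not tested.

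For the receptors, Rxrg stood at 5.33 and 4.35 CPM after defeat against 5.34 and 6.72 CPM in home-cage mice (log2 fold change -0.32, SE 0.117, adjusted p = 0.338). It passed without home-cage replicate 1 alone (log2 fold change -0.48, adjusted p = 0.0120). Rara stood at 27.1 and 28 CPM against 23.2 and 26.0 CPM, Rxra at 28.1 and 29.0 CPM against 29.2 and 30.7 CPM, and Rxrb at 29.8 and 28.1 CPM against 30.2 and 31.4 CPM. The differences of Rara, Rxra, Rxrb and Rarb were small, between -0.12 and 0.15 on the log2 scale, and none passed.

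Of the other genes, Rbp4 had a log2 fold change of 0.02 and Aldh1a3 of 0.11. Cyp26b1 stood at 2.38 and 3.02 CPM after defeat against 2.56 and 3.90 CPM in home-cage mice (log2 fold change -0.26, adjusted p = 0.786), and passed without home-cage replicate 1 (log2 fold change -0.54, adjusted p = 0.0237). In 8 of the 10 genes the defeat libraries did not overlap the home-cage libraries, 3 above and 5 below, where 34.1% of the genes tested did not overlap. An exact permutation test of 2 against 2 libraries has a smallest two-sided p of 0.33, so a gap between groups is a description only.

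Cocaine conditioning against home cage in NAc showed no change that passed in any of the 10 genes. In edgeR 0 of the 10 passed, where 0% of the 18418 genes tested passed, and 0 of the 10 had an unadjusted p under 0.05, as 1.15% of all genes did (211). DESeq2 passed 4 genes, 0 of them among the 10. Rarb had a log2 fold change of 0.04 with a 95% interval of -2.26 to 2.33, and Rxrg one of -0.07 with an interval of -1.56 to 1.41. A change of either receptor within these bounds was not detectable in this fit, which keeps the difference between the replicate numbers in its spread. Within a replicate number, Rarb after cocaine was 0.932 times its home-cage level in replicate 1 and 1.42 times in replicate 2. For Rxrg the same ratios were 0.900 and 1.06, on both sides of 1, as for Rarb.

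Narrower intervals were obtained for genes that spread less. Aldh1a1 stood at 14 and 15.8 CPM after cocaine against 12.8 and 14.6 CPM in home-cage mice (log2 fold change 0.13, 95% interval -0.18 to 0.44). Rbp4 stood at 4.54 and 5.38 CPM against 4.56 and 4.23 CPM, with overlapping groups (log2 fold change 0.18, SE 0.144). Rara and Rxra differed by -0.06 and -0.03 on the log2 scale. Rxrb, at 25.8 and 24.4 CPM after cocaine against 25.8 and 28.4 CPM in home-cage mice, had groups that did not overlap, by a narrow margin, as in 24.3% of the genes tested, and a log2 fold change of -0.10 (SE 0.0911).

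Aldh1a3, among the genes with few counts, had the widest error after Rarb. It stood at 0.222 and 0.826 CPM after cocaine against 0.181 and 0.384 CPM in home-cage mice, from 31 and 118 counts against 32 and 53 counts. Replicate 2 was the higher library in both groups, and the log2 fold change was 0.91 (SE 0.749). Aldh1a2 had a log2 fold change of -0.08, and Cyp26b1, at 2.25 and 1.39 CPM against 2.39 and 1.70 CPM, one of -0.16. All 10 genes had an adjusted p = 1 in this comparison.

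Whether cocaine in NAc and defeat in mPFC changed the genes differently was tested as the difference of the log2 fold changes in a fit of all 8 libraries. In edgeR 0 of the 10 genes and 0% of the 18783 genes passed, where 2.21% of all genes (415) had an unadjusted p under 0.05 and DESeq2 passed 2 genes and 0 of the 10. Aldh1a1 had the largest difference relative to its error, 0.54 (SE 0.134, 95% interval 0.23 to 0.86), with an unadjusted p = 0.0046 and an adjusted p = 1. Its fall after defeat is thus not shown to differ from its value after cocaine.

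The rest of the pathway, to be read against the 12.4% of all genes that passed between the regions in home-cage mice, was taken from lists of retinol supply, retinoid-binding proteins, other breakdown enzymes, RXR partner receptors, coregulators of RARs and known retinoic acid target genes, in which some genes stand in more than 1 list. In home-cage mice, Stra6, the membrane receptor for the retinol carrier, was the only gene of 16 tested in the supply list to pass. It stood at 30.1 and 12.2 CPM in NAc against 3.70 and 5.88 CPM in mPFC (log2 fold change 2.13, SE 0.473, adjusted p = 0.0462). The next genes of the list, Dhrs3 and Ttr, did not pass, with log2 fold changes of 0.59 and 2.75. NAc replicate 1 was the higher library for Stra6 as for Rarb. It was also the higher one for 10 choroid plexus and ependyma markers, Ttr among them, with Kcnj13 at 0 in every library. Their summed level was 28.3 and 11.5 CPM in NAc against 4.96 and 5.51 CPM in mPFC, and 2 of the 6 tested were higher in NAc. Their part in the level of Stra6 was not tested.

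Crabp1, a cellular retinoic acid binding protein, was the only binding protein to pass, of 6 tested. It stood at 1.06 and 0.798 CPM in NAc against 0.0516 and 0.0540 CPM in mPFC, where it rested on 7 and 6 counts (log2 fold change 4.11, SE 0.336, adjusted p = 0.00485). Here the NAc replicates lay close together. Of 7 tested breakdown enzymes, 1 was lower, Cyp1b1, at 0.763 and 0.645 CPM in NAc against 1.59 and 1.47 CPM in mPFC (log2 fold change -1.12, SE 0.201, adjusted p = 0.0285). Rarg, the remaining RAR, was higher, at 24.6 and 20.1 CPM in NAc against 14.3 and 14.9 CPM in mPFC (log2 fold change 0.60, SE 0.130, adjusted p = 0.0436).

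Among 15 RXR partners, 1 was lower, Nr2f2, an orphan receptor of the COUP-TF family (log2 fold change -1.29, SE 0.168, adjusted p = 0.0133). It stood at 3.67 and 4.82 CPM in NAc against 10.3 and 10.4 CPM in mPFC. In edgeR 0 of 17 tested coregulators passed and 4 had an unadjusted p under 0.05. Of 14 tested target genes, 5 were higher and 1 lower, with a median log2 fold change of 0.39 against 0.01 over all genes. Meis1, a homeobox factor, stood at 14.7 and 17.2 CPM in NAc against 3.04 and 2.64 CPM in mPFC (log2 fold change 2.47, SE 0.15, adjusted p = 0.00262). Drd2, a known retinoid-responsive gene in striatum and also one of the striatal markers above, differed by 6.08 on the log2 scale (SE 0.839, adjusted p = 0.0153).

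After the experiences, more of these genes passed between NAc and mPFC, as over all genes, where 36.3% passed, 19.2% as higher and 17.1% as lower. In the supply list 5 of 18 tested were higher and 1 lower, among the binding proteins 3 of 6 were higher, and among the breakdown enzymes 3 of 7 were higher and 1 lower. Stra6 had a log2 fold change of 2.25, Crabp1 of 3.30 and Cyp1b1 of -1.38. Rarg did not pass (log2 fold change 0.54, adjusted p = 0.0788). Of 15 RXR partners 2 were higher and 6 lower, with -1.02 for Nr4a1, -2.01 for Pparg and -1.34 for Nr2f2. Of 17 coregulators 3 were higher and 1 lower, and of 14 target genes 7 were higher and 2 lower, with 2.19 for Meis1.

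After defeat in mPFC, only the RXR partners Nr4a1 and Nr4a2 passed among all these lists, 2 of 14 tested partners. Nr4a1, an immediate early gene that encodes an orphan receptor, stood at 195 and 206 CPM after defeat against 98.2 and 103 CPM in home-cage mice (log2 fold change 0.99, SE 0.0766, adjusted p = 1.28e-15). Nr4a2 stood at 21.3 and 24 CPM after defeat against 15.2 and 13.6 CPM (log2 fold change 0.64, SE 0.0874, adjusted p = 2.88e-07). Both rose with no overlap between the groups. Ttr, which encodes the blood and choroid plexus carrier that binds RBP4, did not pass (log2 fold change 1.02, adjusted p = 0.146), and defeat replicate 2 alone was high, at 0.282 and 1.26 CPM after defeat against 0.361 and 0.405 CPM. After cocaine in NAc, edgeR passed 0 genes of any of these lists, and 0 of them had an unadjusted p under 0.05. The smallest p among the partners there was that of Nr4a1, at 95.1 and 101 CPM after cocaine against 56.2 and 83.9 CPM in home-cage mice (log2 fold change 0.49, SE 0.210).

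**Figure D5:**
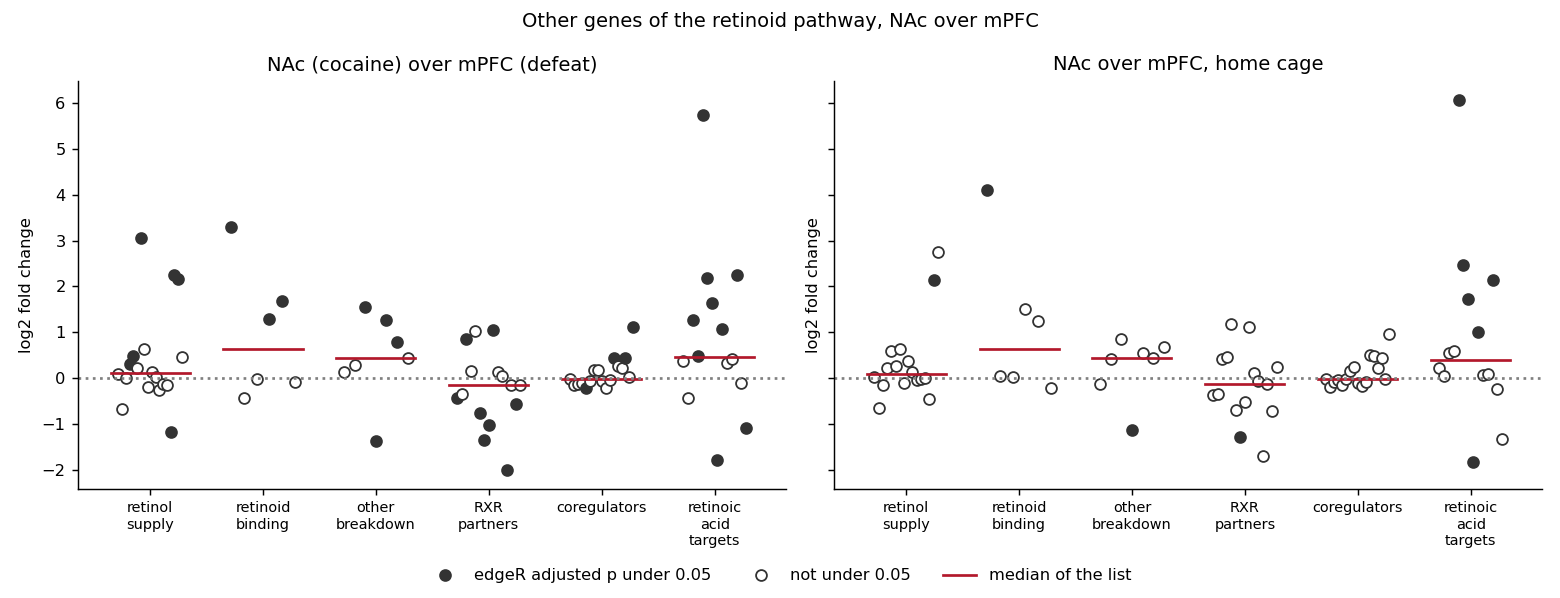
Log2 fold changes of the tested genes of the other retinoid lists in the comparisons of NAc with mPFC, after the experiences and in home-cage mice, with 1 point a gene, a line at the median of each list and filled points for genes that passed at an adjusted p under 0.05 in edgeR. The home-cage panel holds passing genes in every list but the coregulators, and the panel after the experiences holds passing genes in all 6 lists.

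The genes whose log2 CPM most resembled the 3 most variable retinoic acid genes are given as a description over 8 libraries that share regions and replicate numbers. For Rarb these were Epyc, 1110051M20Rik and Sh3rf2, each with a Pearson r of 0.999. For Rxrg they were Tbc1d16 and Rab40b, with 0.999 each, and Sox1ot with 0.998. For Aldh1a3 they were Gm42707 with 0.998, and Zdhhc5 and Cd74 with 0.997 each. Sh3rf2 stood at 45.8 and 14.1 CPM in NAc after cocaine and 50.2 and 11.2 CPM in NAc home-cage mice, against 0.408 to 0.518 CPM in mPFC. Gm42707 stood at 0.0861 and 0.616 CPM after cocaine and 0.113 and 0.305 CPM in NAc home-cage mice, against 3.72 to 4.14 CPM in mPFC. A high r does not require a range as wide. Over the 8 libraries 1110051M20Rik ran only from 117 to 142 CPM, and Zdhhc5 from 48.9 to 75.9 CPM.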

How the data were processed

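The authors deposited raw counts per gene symbol, 1 table for NAc and 1 for mPFC. Per the submitters' processing notes, STAR 2.7.1a, featureCounts and the mm10 build were used. Not given in the sources used here are the featureCounts version, the annotation and how strand, introns and multiple hits were treated. RNA was isolated with a QIAGEN kit and made into total RNA libraries, per the labels' protocols. Groups came from titles and treatment labels, and defeat and mPFC home-cage replicates were numbered in deposited order.

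Both tables were joined and tested in R 4.3.3 with edgeR 4.0.16: filterByExpr, TMM factors, estimateDisp, glmQLFit and glmQLFTest, for each comparison on its own 4 libraries and for the difference of responses on all 8, with Benjamini-Hochberg adjustment over all tested genes at 0.05. The standard error (SE) of a log2 fold change was its size over the root of the quasi-likelihood F. All 10 genes passed the low-count filter in each fit. DESeq2 1.42.0, RLE factors, no filter, a fit of all libraries and leaving out each library were alternatives. The procedure was run on simulated data with the same dispersion for every gene and no effect of replicate number. That run therefore does not show how it behaves with the wide spread of the NAc pairs. Figures were drawn with matplotlib 3.10.9. Replicate pairs differed beyond sampling noise: the chi-square of their counts over genes was 22.8 to 299 per degree of freedom.

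Positions, lengths and overlaps came from GENCODE M21 and promoter windows (250 bases before to 50 after a start) from RefSeq. Named were all 10 genes, Rarg, up to 3 genes with the smallest p in each further retinoid list and comparison, fixed marker genes, and for the 3 genes with the widest range the 3 most alike in log2 CPM among genes with a mean of at least 1 CPM. The genes and lists were chosen with earlier results of these data known. Some genes that this rule names are not reported here.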

Additional observations from a re-analysis of the deposited data

How the results depend on the processing

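The region calls of the 10 genes kept their number under DESeq2, RLE factors, no filter and, in home-cage mice, the replicate block. In 1 fit of all 8 libraries 6 passed in home-cage mice, with Aldh1a1 gained (adjusted p = 0.0393), and 6 after the experiences, with Rara lost (adjusted p = 0.0959). Leaving out a library changed them most: in home-cage mice 0 to 7 of the 10 and 0 to 8048 of all genes passed, and after the experiences 3 to 10 and 1133 to 9334, with fewer libraries in each fit. Such a fit takes its error only from the group that kept 2 libraries. Over all genes the home-cage comparison passed 3618 in DESeq2 and 4654 in 1 fit of all 8 libraries, where the cause was not tested.

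In the defeat comparison, 2 of the 10 genes passed with no filter, 0 in the fit of all 8 libraries and 0 to 3 without a library, and over all genes 5 passed in the fit of all 8 and 58 to 238 without a library. In the cocaine comparison DESeq2 passed 4 genes. Same-numbered NAc libraries deviated together (r = 0.80 between cocaine and home cage), but with 2 pairs the numbers were not taken as a pairing. With a replicate block 38 genes passed after cocaine, 33 higher and 5 lower, and 0 of the 10, and 2174 genes and 5 of the 10 between the regions. In that fit after cocaine the log2 fold change was 0.21 for Rarb (95% interval -0.045 to 0.46), -0.026 for Rxrg (-0.20 to 0.15) and 0.79 for Aldh1a3 (0.18 to 1.41, adjusted p = 0.433), with narrower intervals than without the block. In the difference of responses, DESeq2 passed 2 genes and fits without a library 0 to 1.

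Without a library, log2 fold changes ran across 0. After cocaine these were Aldh1a2 (-0.30 to 0.17), Aldh1a3 (-0.32 to 1.56), Cyp26b1 (-0.55 to 0.15), Rara (-0.18 to 0.057), Rarb (-0.92 to 1.47), Rxra (-0.11 to 0.065) and Rxrg (-0.69 to 0.72). After defeat they were Cyp26b1 (-0.54 to 0.069) and Rbp4 (-0.035 to 0.081), and between the regions in home-cage mice Rara (-0.16 to 0.081). In the difference of responses they were Aldh1a3 (-0.42 to 1.47), Cyp26b1 (-0.28 to 0.40), Rarb (-0.80 to 1.58), Rxra (-0.045 to 0.14), Rxrb (-0.078 to 0.066) and Rxrg (-0.36 to 1.03). That of Rxrb, -0.0016 as reported, was 0.0026 in DESeq2 and 0.0057 with RLE factors. All 40 group levels moved by less than 1 SD with RLE factors.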
